A study of Mus musculus with 20 samples.

Results

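The DNA methylation and demethylation genes described here are Dnmt1, Dnmt3a, Dnmt3b, Uhrf1, Mbd2, Tet1, Tet2, Tet3 and Tdg, which write, copy, read or remove 5-methylcytosine. The list was set by symbol for that role, with earlier results of these data known, and no measured value enters its rule. It makes up 9 of the 25444 loci in the table of counts. RNA was sequenced from the left lateral liver lobe of 20 mice aged 20 weeks in 4 groups of 5: female C57BL/6N (B6), male B6, female C3H/HeN (C3) and male C3. Both strains are inbred, and no animal carried an engineered allele or received a treatment. All were single-housed and underwent the same change of diet, and per the study's methods females and males were housed in different rooms, which means that room and sex cannot be told apart. The comparisons ask how the RNA of these genes differed between sexes within each strain, between strains within each sex, and whether the sex difference itself differed between strains.

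In mammals, methylation of cytosine at CpG sites is laid down anew by Dnmt3a and Dnmt3b and copied onto the daughter strand after replication by Dnmt1, which Uhrf1 guides to hemimethylated DNA. Mbd2 binds methylated CpG and is a subunit of the NuRD complex, which combines chromatin remodelling with histone deacetylation. The dioxygenases Tet1, Tet2 and Tet3 oxidise 5-methylcytosine using oxygen, iron and 2-oxoglutarate, and the glycosylase Tdg excises the most oxidised forms, which base excision repair then replaces with cytosine. The adult liver consists mostly of hepatocytes that rarely divide, so copying of methylation at replication is needed less often there than in dividing tissue.

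Libraries held 27370921 to 46835745 counts, and a count of 3, taken as the smallest countable level, equals 0.0641 to 0.110 CPM, counts scaled to the library total. Sex labels matched the data in every liver: Xist, the RNA that coats the inactive X, lay at 381 to 772 CPM in the 10 females and at no more than 0.348 CPM in the 10 males, while the Y-linked helicase gene Ddx3y lay at 75.01 to 114 CPM in males and at no more than 0.033 CPM in females. The 6 hepatocyte markers (Alb, Ttr, Apoa1, Hnf4a, Tat and Pck1) together made up 67630 to 153900 CPM. Libraries were sequenced in 3 pools, each with 1 or 2 livers of every group, and several members differed in level between pools, as given with them.

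The count table leaves out reads that fit more than 1 place, so the sequence of a member bears on its count. The longest coding transcript of each member in the GENCODE annotation of mm9 was divided into windows of 125 bases, the length of a read, and each window was searched for in the mm9 genome with at most 2 mismatches. For Tdg, 83.8% of 136 windows, and 97.8% of the 45 windows in coding sequence, were also found outside the gene. The copies lay on chromosomes 7 (chr7:83388080-83391004), 10 (chr10:41772369-41775141), 15 (chr15:82346760-82349709) and 19 (chr19:33746790-33748517). For Uhrf1, 39.6% of 139 windows had a copy, all at chrX:118447618-118450170, where the table lists no gene. Of these 55 windows 7 were identical in the copy, and the rest differed by no more than 2 bases. The share was 1.79% for Dnmt3b, 0.551% for Tet2, 0.526% for Tet1 and 0 for Dnmt1, Dnmt3a, Mbd2 and Tet3. The following stretches of coding sequence show how close the copies are, and capitals mark a base that differs from the gene.
Tdg, chr10:82104080-82104204, plus strand, mm9: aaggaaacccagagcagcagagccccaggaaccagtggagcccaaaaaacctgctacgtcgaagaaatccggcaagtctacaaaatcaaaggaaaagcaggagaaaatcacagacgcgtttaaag
Tdg copy, chr15:82347060-82347184, plus strand, mm9: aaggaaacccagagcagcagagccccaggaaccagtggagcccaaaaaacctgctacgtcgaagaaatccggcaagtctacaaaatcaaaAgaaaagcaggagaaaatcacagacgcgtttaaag
Uhrf1, chr17:56452509-56452633, plus strand, mm9: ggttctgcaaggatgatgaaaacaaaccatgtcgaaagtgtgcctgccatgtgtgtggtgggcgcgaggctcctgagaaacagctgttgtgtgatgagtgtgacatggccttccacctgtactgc
Uhrf1 copy, chrX:118449896-118450020, minus strand, mm9: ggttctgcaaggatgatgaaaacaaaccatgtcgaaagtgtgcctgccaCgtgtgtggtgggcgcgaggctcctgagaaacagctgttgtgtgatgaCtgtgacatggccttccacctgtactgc
Counted from 1 at the 5′ end, the chromosome 15 copy of Tdg differs by the substitution G91A, and 2 further copies, at chr10:41774842-41774966 and chr7:83390555-83390679, are identical to the gene over all 125 bases. The X copy of Uhrf1 differs by T50C and G98C.

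Tdg (gene 21665, chr10:82092583-82113239, plus strand, mm9) was at the edge of detection. It had 5, 1, 1, 1 and 0 counts in the B6 females, 0 in each B6 male, 0, 3, 1, 0 and 0 in the C3 females, and 0, 1, 0, 3 and 0 in the C3 males. That is 16 counts over 20 livers, with 12 livers at 0, and a count of 0 allows up to 3 counts in a library. The gene did not pass the filter on low counts and was not tested. A second table entry, Gm9855, named in RefSeq as the Tdg pseudogene Tdg-ps2, is placed on the same strand at chr10:82092587-82113022, over nearly all of Tdg, and had 0 counts in every liver. Reads shared by overlapping genes were also left out of the counts, so the level of Tdg RNA in these livers cannot be read from this table.

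**Figure D1:**
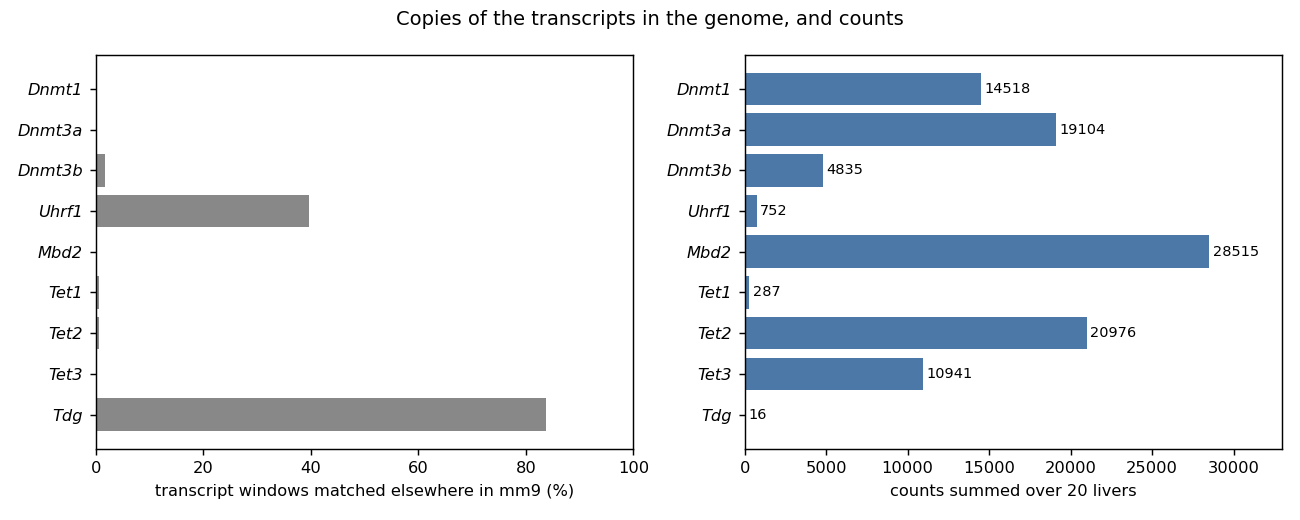
Left, percent of 125-base transcript windows of each member that match another place in the mm9 genome with at most 2 mismatches. Right, counts of the member summed over 20 livers; Tdg, with 83.8% of its windows matched elsewhere, has 16 counts, and Mbd2, with none matched, has 28515.

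Promoter sequences, taken from RefSeq as the 250 bases before an annotated start (build GRCm38.p6), were matched for 8 of the 9 members, 13 promoters in all. They were rich in CpG: 12 of the 13 held at least as many CpG sites as the median of 6 over 32851 promoters (quartiles 2 and 16). Tet2 had the most, with 51 CpG sites in 250 bases, and the 3 Dnmt3a promoters had 38, 40 and 15. The promoters of Tet2, Dnmt3b and Uhrf1 are shown with each CpG in capitals, since these members had the largest differences that passed, the sparsely counted Tet1 aside, and CpG sites are where the enzymes act.
Tet2, chr3:133544391-133544640, minus strand, GRCm38.p6: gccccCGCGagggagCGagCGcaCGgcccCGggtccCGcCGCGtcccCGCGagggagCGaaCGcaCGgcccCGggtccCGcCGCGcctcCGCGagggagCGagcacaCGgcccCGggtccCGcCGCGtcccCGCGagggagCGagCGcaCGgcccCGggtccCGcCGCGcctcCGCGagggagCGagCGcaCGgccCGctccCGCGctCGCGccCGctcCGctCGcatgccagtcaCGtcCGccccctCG
Dnmt3b, chr2:153649199-153649448, plus strand, GRCm38.p6: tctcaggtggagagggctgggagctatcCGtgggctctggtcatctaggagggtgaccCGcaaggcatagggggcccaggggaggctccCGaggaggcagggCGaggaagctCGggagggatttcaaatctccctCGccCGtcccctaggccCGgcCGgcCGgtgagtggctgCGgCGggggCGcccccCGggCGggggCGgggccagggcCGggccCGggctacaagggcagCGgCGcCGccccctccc
Uhrf1, downstream start, chr17:56304063-56304312, plus strand, GRCm38.p6: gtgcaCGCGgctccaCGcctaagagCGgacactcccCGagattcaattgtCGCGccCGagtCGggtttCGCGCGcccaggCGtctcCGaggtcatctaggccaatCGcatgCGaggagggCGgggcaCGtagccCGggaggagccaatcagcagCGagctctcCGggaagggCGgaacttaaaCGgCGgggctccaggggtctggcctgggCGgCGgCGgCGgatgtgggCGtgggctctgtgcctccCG
These hold 51, 21 and 30 CpG sites. The letters TTTCCCGC and TTTGGCGC, as bound by E2F factors, the E-box CACGTG and the letters TTCNNNGAA, as bound by STAT5, were searched for on both strands. None of the 3 promoters shown held any of them. Among the other members, 1 Dnmt3a promoter held the E-box and the Tdg promoter held the E-box and TTCNNNGAA. Over all 32851 promoters the shares with a match were 0.895%, 0.417%, 6.02% and 7.02%, in the order given.

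To compare genes with each other, TPM was used, which is scaled to gene length as well as to the library total. Mbd2 had the highest level in every group, with mean TPM of 35.8 ± 5.73 (SD, n = 5) in B6 and 32.4 ± 4.36 in C3 among females, and 37.1 ± 7.91 in B6 and 34.9 ± 6.00 in C3 among males, and its livers did not overlap with those of any other member. Tet2, Dnmt1 and Dnmt3a followed, with group means between 4.09 and 8.22 TPM, and neighbours among them overlapped in every group. Dnmt3b and Tet3 came next, between 2.44 and 4.50 TPM. These 2 overlapped in all groups but C3 females, where Dnmt3b (4.50 ± 0.52) lay above Tet3 (3.13 ± 0.23). Uhrf1 stayed at or below a mean of 0.994 TPM and Tet1 at or below 0.0811 TPM. Tdg was counted at or below 0.0248 TPM, but reads shared with its copies or with Gm9855 were left out. Its place among the members therefore cannot be read from these values.

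Within the families, Tet2 accounted for 55.9% to 76.9% of the summed TET TPM of a liver and Tet1 for less than 1% (0.158% to 0.985%). Tet3 made up the rest, so the RNA of the TET family in these livers was mainly Tet2. Among the methyltransferases, the mean share of Dnmt1 was 46.99% in B6 females and 48.9% in B6 males against 38.7% in C3 females and 40.7% in C3 males. Among males the groups did not overlap (45.5% to 52.9% in B6, 36.4% to 43.1% in C3). Among females they did (41.1% to 54.2% against 33.5% to 44.2%).

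**Figure D2:**
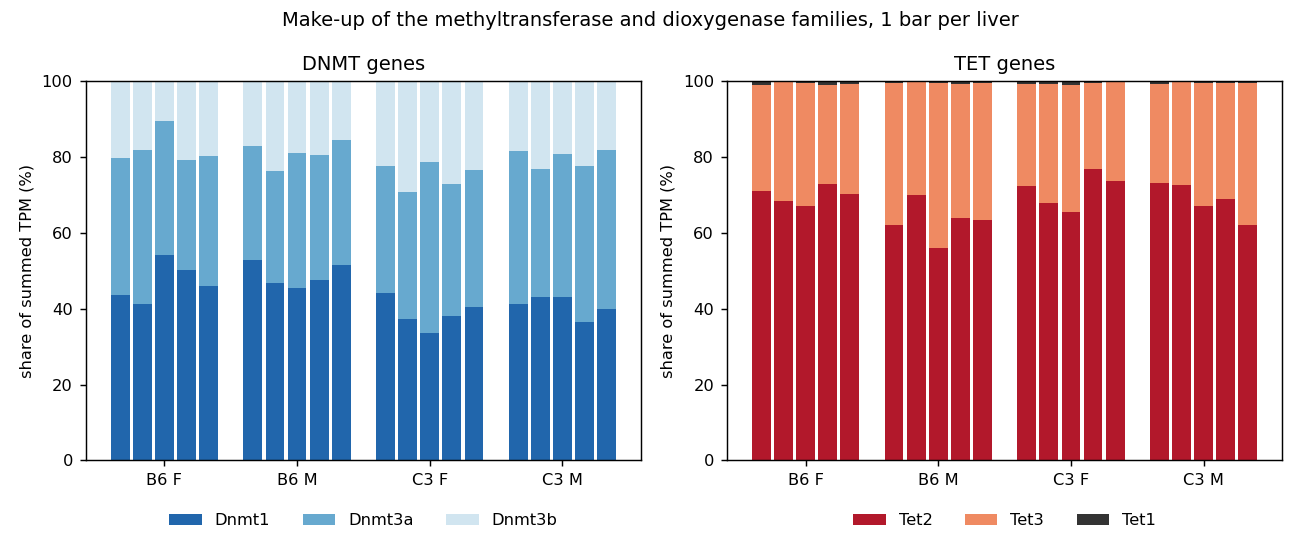
Share of each gene in the summed TPM of its family (vertical axis, percent), with 1 bar per liver and 5 bars per group; left, the DNMT genes, right, the TET genes. Tet2 makes up 55.9% to 76.9% of TET TPM in every liver, and the Dnmt1 share is lower in C3 males (36.4% to 43.1%) than in B6 males (45.5% to 52.9%).

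For comparisons between groups, CPM scaled by trimmed mean of M values (TMM) are given per liver, and edgeR's quasi-likelihood test was fitted to the counts of all 20 livers with pool as a term. A gene passed at an adjusted p below 0.05 over 13704 genes tested. The study's own, stricter rule asked for an adjusted p below 0.001 and a log2 fold change beyond 0.5. Sex differences in these genes mostly ran towards females. In B6, 3 of the 8 members tested were higher in females (Dnmt3a, Tet1 and Tet2), beside 16.2% of all genes, and 1, Mbd2, was lower, beside 18.4%. In C3, 5 were higher in females (Dnmt1, Dnmt3b, Tet1, Tet2 and Tet3), beside 20.1% of all genes, and again only Mbd2 was lower, beside 19.9%. The median log2 fold change of the 8 members, female against male, was 0.23 in B6 and 0.24 in C3, against medians of 0.0018 and 0.015 over all genes.

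The strain differences that passed were those of Dnmt3a, Dnmt3b and Uhrf1, and with 8 members tested their number was near or below the shares of all genes. In females, Dnmt3a and Dnmt3b were higher in C3 than in B6, beside 17.7% of all genes, and Uhrf1 was lower, beside 15.3%. In males Dnmt3a alone passed as higher in C3, beside 17.0% of all genes, and no member passed as lower, beside 17.5%. The median over the 8 members was 0.030 in females and -0.062 in males, against 0.020 and 0.015 over all genes. By the study's rule, Tet2 passed between sexes in B6 (6.34% of all genes passed), no member did in C3 (6.90%), Dnmt3b passed between strains in females (9.40%), and Dnmt3a in males (9.64%). A single member of 8 is near these shares.

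Livers of the groups compared did not overlap in CPM for Dnmt3a between sexes in B6 (10.9% of all genes did not), for Dnmt3b between sexes in C3 (13.1%), for Dnmt3b and Uhrf1 between strains in females (12.8%), and for Dnmt3a and Uhrf1 between strains in males (15.1%). With 8 members tested, 1 or 2 members per comparison is not far from these shares. The sex difference did not pass as different between strains for any of the 8 members with edgeR, at an adjusted p below 0.05 or at an unadjusted one, whereas 2.96% of all genes passed at the adjusted threshold. DESeq2 and limma also called none. The difference closest to passing was that of Dnmt3b, where the female excess was larger in C3 by 0.41 on the log2 scale (95% interval -0.07 to 0.88, edgeR adjusted p = 0.405).

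**Figure D3:**
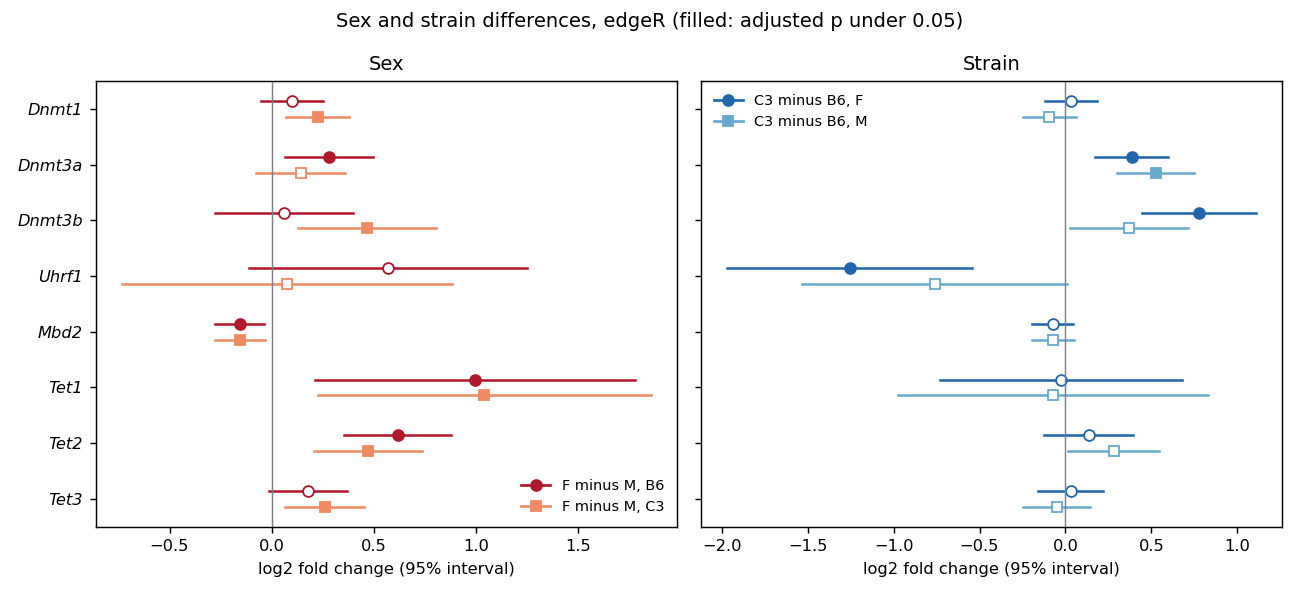
Log2 fold change with its 95% interval (edgeR, 20 livers) for the 8 members tested, left between sexes in each strain, right between strains in each sex; filled symbols passed at an adjusted p below 0.05. Tet2 and Tet1 lie to the female side in both strains, Mbd2 to the male side, and Dnmt3a and Dnmt3b to the C3 side, with Uhrf1 to the B6 side.

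Uhrf1 (gene 18140, chr17:56442760-56462909, plus strand, mm9), which brings Dnmt1 to newly replicated DNA, was the member with the largest strain difference. In females its levels were 1.38, 1.17, 1.11, 2.95 and 1.63 CPM in B6 and 0.727, 0.199, 0.649, 0.991 and 0.931 CPM in C3. Every B6 female lay above every C3 female. The fitted difference was -1.26 on the log2 scale, a fold of 2.39, with a standard error (SE) of 0.34 and an edgeR adjusted p of 0.0078. In males the levels were 0.930, 1.04, 1.57, 0.888 and 0.920 CPM in B6 and 0.851, 0.605, 0.2996, 0.808 and 0.642 CPM in C3. The groups again did not overlap, but the difference of -0.76 (SE 0.37) did not pass (adjusted p = 0.118). Between sexes, the log2 difference was 0.57 in B6 (adjusted p = 0.183) and 0.08 in C3 (adjusted p = 0.893). These levels rest on 9 to 109 counts per library. Windows with a copy on the X chromosome make up 39.6% of the transcript, but only 7 of those 55 windows are identical in the copy. How many reads of Uhrf1 were left out for that reason was not measured.

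Some genes of DNA replication and cell division, with which Uhrf1 is usually expressed, were also lower in C3. Of 19 such genes (Mki67, Top2a, Pcna, Mcm2 to Mcm7, Cdk1, cyclins and others), 7 were lower and 0 higher in C3 females, beside 15.3% and 17.7% of all genes, and 12 did not pass. In C3 males 7 were lower, 4 of them by the study's rule, and 0 higher, beside 17.5% and 17.0% of all genes. Among those that did not pass, Cdt1, which loads the replicative helicase, differed by 0.40 and 0.04, and Rrm1, a subunit of ribonucleotide reductase, by 0.06 and 0.07. Their median log2 difference was -0.47 in females and -0.65 in males. In males Mcm2, a subunit of the replicative helicase, fell by 1.41 on the log2 scale (SE 0.17, edgeR adjusted p = 2.78e-06) and Mcm5, another, fell by 1.25 (SE 0.19, adjusted p = 4e-05). In females Mcm2 differed by -0.39 and Mcm5 by -0.67 (adjusted p = 0.071 and 0.00677). The summed level of the 19 genes was 98.2 to 124 CPM in B6 females against 78.3 to 96.1 in C3 females, and 83.6 to 116 CPM in B6 males against 68.9 to 80.4 in C3 males. In a whole-liver sample, fewer cells of a type and less RNA per cell cannot be told apart, and the part of dividing cells in the Uhrf1 difference was not tested.

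Dnmt1 (gene 13433, chr9:20711650-20764332, minus strand), the maintenance methyltransferase, differed little. It lay at 17.2, 17.5, 24.03, 25.01 and 20.5 CPM in B6 females and at 22.2, 20.1, 17.7, 18.7 and 17.8 CPM in B6 males. In C3 females it lay at 24.5, 18.5, 18.3, 22.8 and 22.2 CPM and in C3 males at 18.0, 19.5, 18.6, 16.8 and 22.0 CPM. The groups overlapped throughout. In C3 it was higher in females by 0.22 on the log2 scale (SE 0.073, edgeR adjusted p = 0.0214), and in B6 the difference was 0.10 (95% interval -0.05 to 0.25, adjusted p = 0.30). The sex differences of the strains did not pass as different from each other (0.12, adjusted p = 0.61). The C3 call was lost without the pool term (0.16, adjusted p = 0.378), without pool 1, 2 or 3 (adjusted p = 0.103, 0.126 and 0.0663), and without the first C3 female or the first C3 male (adjusted p up to 0.0568). Strain differences of Dnmt1 were 0.03 in females (95% interval -0.12 to 0.18) and -0.09 in males (-0.25 to 0.06). The Uhrf1 TPM per Dnmt1 TPM was 0.135 ± 0.045 in B6 females and 0.0560 ± 0.023 in C3 females (SD, n = 5), with no overlap between the ranges (0.0802 to 0.205 against 0.0187 to 0.0754). In males it was 0.0976 ± 0.032 in B6 and 0.0594 ± 0.023 in C3, and the ranges overlapped (0.0727 to 0.154 against 0.0279 to 0.0831).

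Dnmt3a (gene 13435, chr12:3806980-3914443, plus strand, mm9), a de novo methyltransferase, was higher in C3 than in B6 in both sexes. Female levels were 22.4, 27.3, 24.6, 22.9 and 23.8 CPM in B6 and 29.2, 26.0, 38.6, 32.8 and 31.2 CPM in C3. A single C3 female, at 26.0 CPM, lay below the highest B6 female. The difference was 0.39 on the log2 scale, a fold of 1.31 (SE 0.10, edgeR adjusted p = 0.00688). Male levels were 19.8, 19.9, 21.6, 20.4 and 17.9 CPM in B6 and 27.5, 24.1, 25.6, 29.9 and 36.6 CPM in C3. Every C3 male lay above every B6 male, and the difference was 0.52, a fold of 1.44 (SE 0.11, adjusted p = 0.000763).

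Between sexes, Dnmt3a was higher in B6 females than in B6 males by 0.28 on the log2 scale (SE 0.10, edgeR adjusted p = 0.0423), and these groups did not overlap. That call was lost in 11 of the 20 fits that each left out 1 liver (adjusted p up to 0.103), without the pool term (0.110) and without any 1 of the pools (up to 0.228). In C3 the difference was 0.14 (95% interval -0.08 to 0.36, adjusted p = 0.294). The strain call in females was lost without the livers of pool 1 (adjusted p = 0.142), while that in males passed in every alternative fit. An antisense gene, Dnmt3aos, overlaps Dnmt3a on the other strand, and the libraries were stranded and counted by strand.

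Dnmt3b (gene 13436, chr2:153475185-153513466, plus strand, mm9), the other de novo methyltransferase, had its highest levels in C3 females. They were 8.46, 9.86, 7.95, 11.1 and 8.80 CPM there, against 5.51, 5.29, 3.20, 7.10 and 6.05 CPM in B6 females. Every C3 female lay above every B6 female, by 0.78 on the log2 scale or 1.71-fold (SE 0.16, edgeR adjusted p = 0.000858). In males the levels were 5.49, 7.23, 5.66, 7.13 and 6.89 CPM in C3 and 4.87, 6.94, 5.05, 5.23 and 3.71 CPM in B6. These overlapped, and the difference of 0.37 (SE 0.16) did not pass (adjusted p = 0.0883), though it did without the second B6 male (0.47, adjusted p = 0.0372) or the third C3 male (0.45, adjusted p = 0.0469).

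The C3 females also lay above all C3 males in Dnmt3b, by 0.47 on the log2 scale (SE 0.16, edgeR adjusted p = 0.0279). This call was lost in 4 of the 20 fits that left out 1 liver (adjusted p up to 0.0836), without the pool term (0.0517) and without pool 1 or 3 (0.14 and 0.103). In B6 the sexes differed by 0.06 (95% interval -0.28 to 0.40). As the ratio of TPM within a liver, Dnmt3b to Dnmt3a was 0.521 ± 0.156 in B6 and 0.688 ± 0.151 in C3 among females, and 0.594 ± 0.124 in B6 and 0.527 ± 0.1004 in C3 among males (SD, n = 5), and all these ranges overlapped.

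Tet2 (gene 214133, chr3:133126641-133207354, minus strand, mm9), the most abundant of the dioxygenases here, was the member that differed most clearly between sexes. In B6 it lay at 28.7, 24.9, 27.8, 40.2 and 39.8 CPM in females and at 22.3, 31.1, 13.1, 18.7 and 21.2 CPM in males. Only the second B6 male reached the range of the females. The female level was higher by 0.62 on the log2 scale, or 1.53-fold (SE 0.12, edgeR adjusted p = 0.00095). In C3 it lay at 39.7, 25.4, 25.7, 48.4 and 40.9 CPM in females and at 28.2, 34.4, 23.8, 21.5 and 26.0 CPM in males. The ranges overlapped, and the difference was 0.47, or 1.39-fold (SE 0.13, adjusted p = 0.0068).

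Much of the spread of Tet2 within a group went with the pool: the mean over livers was 35.0 CPM in pool 1, 28.8 in pool 2 and 22.6 in pool 3. Within pools the female excess in B6 was 0.64, 0.32 and 0.77 on the log2 scale in pools 1, 2 and 3, and in C3 it was 0.64, 0.55 and 0.25. Without the pool term neither difference passed (adjusted p = 0.0715 in B6 and 0.185 in C3), and without pool 1 that in C3 did not (0.101). Strain differences of Tet2 were 0.13 in females (95% interval -0.12 to 0.39) and 0.28 in males (0.01 to 0.55), and neither passed (adjusted p = 0.435 and 0.095). The male difference did pass without the second B6 male (adjusted p = 0.0372) or the third C3 male (adjusted p = 0.0249).

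**Figure D4:**
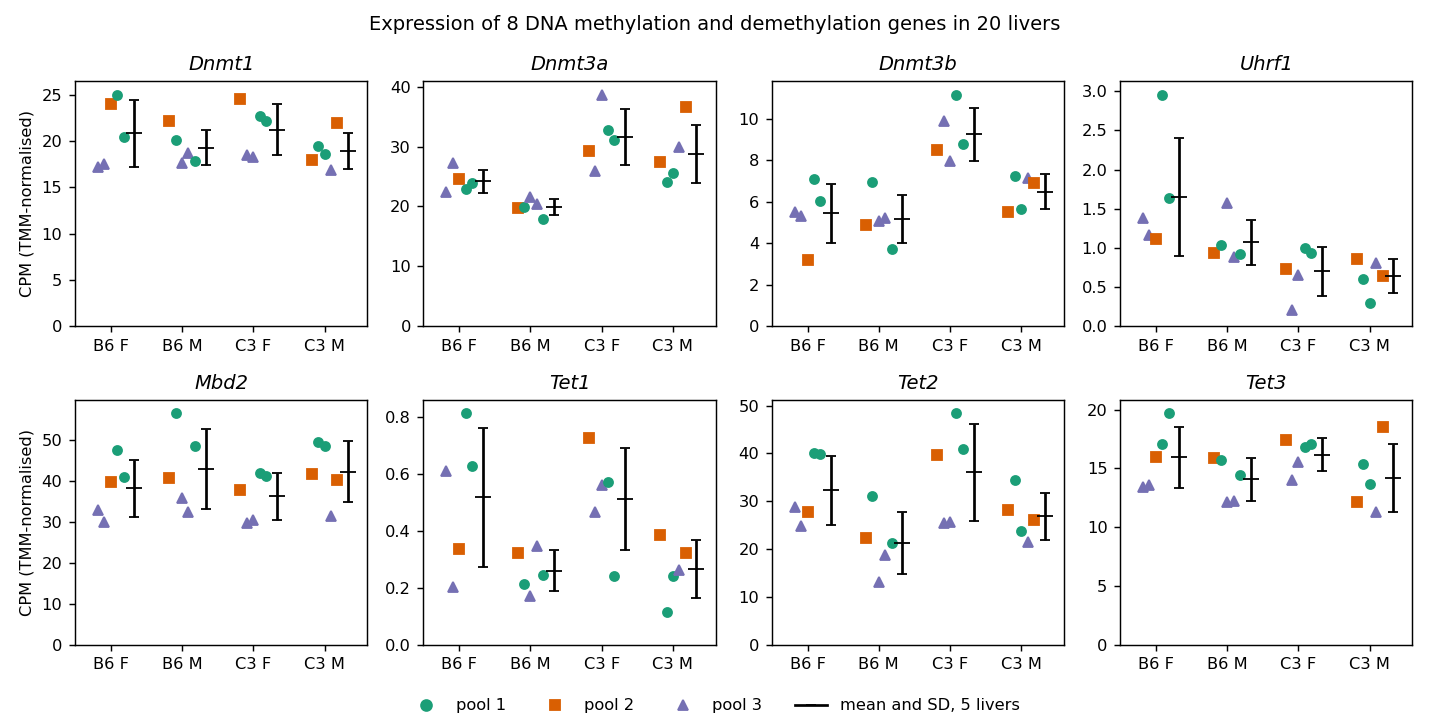
TMM-normalised CPM (vertical axes, each from 0 on its own scale) of the 8 members tested, with 1 point per liver, colour and shape giving its sequencing pool, and the mean and SD of each group of 5 in black. Dnmt3b is highest in C3 females (7.95 to 11.1 CPM), Uhrf1 is lower in C3 than in B6, and pool 3 livers (triangles) lie low for Mbd2 and Tet2.

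Tet3 (gene 194388, chr6:83312368-83391672, minus strand, mm9), another dioxygenase, showed small differences. In C3 it lay at 17.4, 14.0, 15.6, 16.9 and 17.1 CPM in females and at 12.1, 15.4, 13.7, 11.3 and 18.6 CPM in males. The ranges overlapped, and the difference of 0.26 on the log2 scale passed (SE 0.092, edgeR adjusted p = 0.0325) but was lost in 5 of the 20 fits that left out 1 liver (adjusted p up to 0.0881). It was also lost without the pool term (0.369) and without pool 1 or 3 (0.161 and 0.287). In B6 the female levels were 13.4 to 19.7 CPM and the male levels 12.1 to 15.9 CPM, a difference of 0.18 (95% interval -0.01 to 0.37, adjusted p = 0.134). Strain differences were 0.03 in females and -0.05 in males, neither of which passed.

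Tet1 (gene 52463, chr10:62267318-62342762, minus strand, mm9), prominent in embryonic stem cells, was near the limit of detection with 4 to 31 counts per liver. In B6 it lay at 0.610, 0.201, 0.337, 0.813 and 0.626 CPM in females and at 0.321, 0.214, 0.171, 0.345 and 0.245 CPM in males. In C3 it lay at 0.727, 0.465, 0.560, 0.571 and 0.240 CPM in females and at 0.387, 0.115, 0.240, 0.261 and 0.321 CPM in males. In B6 3 of 5 females, and in C3 4 of 5, lay above all males of their strain, and the ranges overlapped in both. The differences of 0.99 in B6 (SE 0.37, edgeR adjusted p = 0.0459) and 1.04 in C3 (SE 0.39, adjusted p = 0.0406) passed narrowly. They were lost in 15 and 8 of the 20 fits that left out 1 liver (adjusted p up to 0.137 and 0.117), and without pool 1 the B6 difference was 0.51. With limma on log2(TPM + 1) the differences were 0.06 in both strains (adjusted p = 0.177 and 0.18), and on log2(TPM + 0.1) 0.37 and 0.39 (0.0919 and 0.0784). Both were also lost without the filter on low counts (adjusted p = 0.0567 and 0.0519).

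Mbd2 (gene 17191, chr18:70727946-70785785, plus strand, mm9), the reader of the group, was the only member that was lower in females. In B6 it lay at 32.8, 29.8, 39.6, 47.5 and 41.0 CPM in females and at 40.7, 56.4, 35.8, 32.2 and 48.6 CPM in males. In C3 it lay at 37.7, 29.8, 30.3, 41.8 and 41.2 CPM in females and at 41.5, 49.6, 48.5, 31.4 and 40.1 CPM in males. The ranges overlapped widely, and pool means were 46.8, 39.9 and 31.7 CPM in pools 1, 2 and 3. With pool in the model, females were lower by -0.16 on the log2 scale in both strains (SE 0.057 and 0.058, edgeR adjusted p = 0.0409 in B6 and 0.0399 in C3). The call for this small difference depended on the scaling. Upper-quartile scaling moved the median of all genes towards females by 0.066 in B6 and 0.064 in C3. With it Mbd2 differed by -0.09 in both strains and did not pass (edgeR adjusted p = 0.253 and 0.229). Without the pool term it did not pass either (adjusted p = 0.569 and 0.375). Leaving out 1 liver ended the call in 4 of 20 fits in B6 and 6 of 20 in C3 (adjusted p up to 0.126 and 0.0967).

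Within pools, the directions that passed over all livers were also seen in each pool. The female minus male difference of Mbd2 was -0.25, -0.04 and -0.12 on the log2 scale in B6 and -0.24, -0.11 and -0.06 in C3, in pools 1, 2 and 3. Dnmt3a was higher in C3 by 0.45, 0.25 and 0.36 in females and by 0.40, 0.68 and 0.51 in males. Dnmt3b was higher in C3 females by 0.59, 1.39 and 0.71. The Uhrf1 difference between females, C3 minus B6, was -1.15, -0.58 and -1.64. Pool 2 holds a single liver of each group but C3 males, so its values have no spread of their own.

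**Figure D5:**
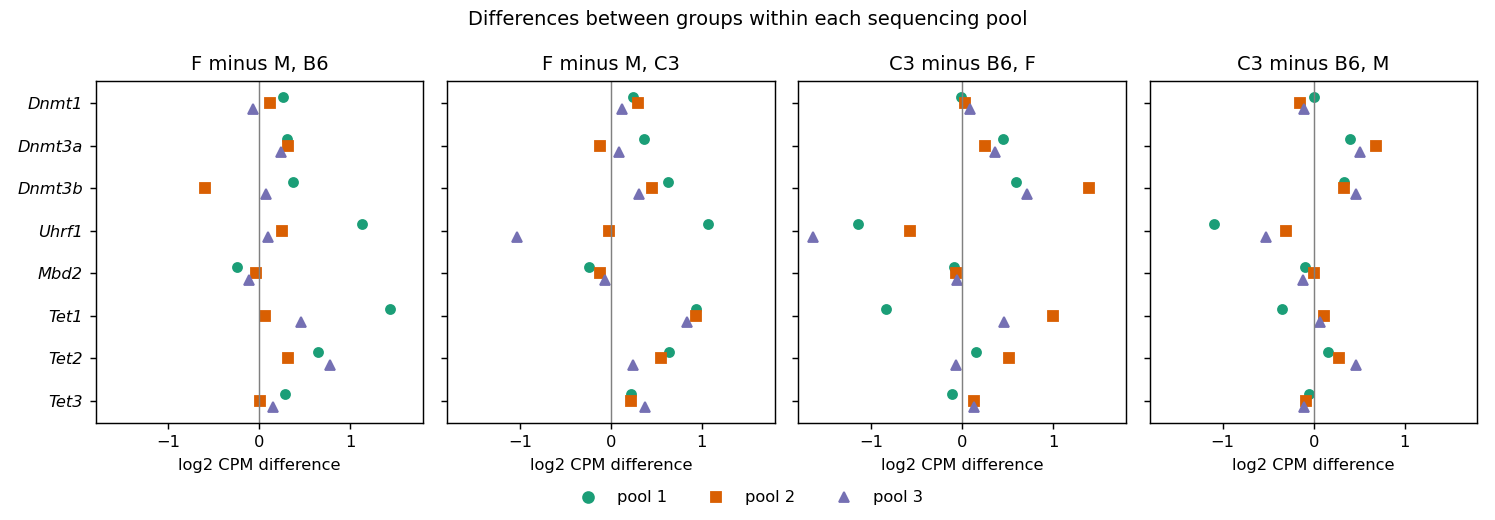
Difference in mean log2 CPM between groups (horizontal axes) within each of the 3 sequencing pools, for the 8 members tested and the 4 comparisons. Tet2 lies to the female side in all pools of both strains, Dnmt3a and Dnmt3b lie to the C3 side and Uhrf1 to the B6 side in all pools, and Tet1 and Uhrf1 scatter most.

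Markers of other liver cells moved with sex and strain too. Of 7 Kupffer cell and macrophage markers tested, 6 were higher in B6 females than in B6 males and 5 in C3 females than in C3 males, with none lower, beside 16.2% and 20.1% of all genes, and median log2 differences of 0.48 and 0.40. The summed level was 420.1 to 553 CPM in females and 271 to 417 in males of B6, and 283 to 424 in females and 195 to 289 in males of C3. Of 6 endothelial markers 5 were higher in females in each strain (365 to 467 CPM against 304 to 370 in B6, 342 to 441 against 310 to 382 in C3), with medians of 0.27 and 0.26. Of 6 stellate cell markers 5 were higher in B6 females and 4 in C3 females (501 to 607 CPM against 405 to 462, and 418 to 453 against 347 to 396), with medians of 0.37 and 0.27. Vsig4, a complement receptor of Kupffer cells, was higher in females by 0.75 in B6 and 0.51 in C3 on the log2 scale (edgeR adjusted p = 8.83e-06 and 0.000662). In C3 against B6, 5 Kupffer, 3 endothelial and 4 stellate markers were lower in each sex (15.3% of all genes in females, 17.5% in males). None was higher (17.7% and 17.0% of all genes). The part of these cells in the strain differences of the members was not tested. Among the markers lower in C3 were Adgre1, the F4/80 antigen (-0.94 in females and -0.91 in males), and Csf1r, the receptor for macrophage growth factor (-0.91 and -0.60). Lyve1, a hyaluronan receptor of sinusoidal endothelium, was lower as well (-0.98 and -0.66).

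Of 8 lymphocyte markers tested, 2 were higher and 1 lower in B6 females (16.2% and 18.4% of all genes). In C3 females 6 were higher and 1 lower (20.1% and 19.9%). Between strains 0 were higher and 2 lower in C3 females (17.7% and 15.3%), and 1 higher and 7 lower in C3 males (17.0% and 17.5%). These markers summed to 14.4 to 34.0 CPM in all livers. Female minus male, their median log2 difference was 0.45 for B6 and 1.31 for C3, and between strains -0.61 in females and -1.30 in males. Ptprc, the pan-leukocyte antigen, was higher in females by 0.61 in B6 and 0.74 in C3. It was lower in C3 than in B6 by -0.61 in females and -0.74 in males. Cd4 was lower in females by -1.995 in B6 and -2.56 in C3. Of 5 bile duct markers 0 to 2 passed in either direction in each comparison, beside 15.3% to 20.1% of all genes, at a summed 21.6 to 43.6 CPM. Among them Sox9, a bile duct transcription factor, was lower in females by -1.42 in B6 and -0.84 in C3 and higher in C3 than in B6 females by 0.85. Of the erythroid markers the 6 globin genes had at most 3 counts in every liver. Reads that fit more than 1 place were left out, and whether this lowered the globin counts was not tested. Only Alas2 was tested between groups, and it was lower in females (-2.76 in B6 and -3.28 in C3 on the log2 scale). Of the 6 hepatocyte markers, 1 was higher and 2 lower in B6 females (16.2% and 18.4% of all genes), and 1 higher and 4 lower in C3 females (20.1% and 19.9%). In C3 against B6 2 were higher and 1 lower in females (17.7% and 15.3%), and 2 higher and none lower in males (17.0% and 17.5%). Among them Apoa1, the main protein of high-density lipoprotein, was higher by 0.84 and 0.71. The female excess passed for Tet1 and Tet2 in both strains, for Dnmt3a in B6, and for Dnmt1, Dnmt3b and Tet3 in C3. Macrophage, endothelial and stellate markers were mostly higher in females of both strains, and lymphocyte markers in C3 females. The part of these cells in the excess was not tested.

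Around the members, partners of maintenance and de novo methylation went both ways. Of 10 such genes tested (Dnmt3l did not pass the filter), 0 passed between sexes in B6 and 1 was higher and 3 lower in C3 females than males, beside 20.1% and 19.9% of all genes. In C3 against B6, 1 was higher and 2 lower in females (17.7% and 15.3% of all genes), and 2 higher and 2 lower in males (17.0% and 17.5%). None passed the study's rule, and the medians lay between -0.02 and 0.03. Hells, a remodeller needed for normal DNA methylation, was lower in C3 by -0.54 in females and -0.79 in males (edgeR adjusted p = 0.0347 and 0.00449), and Pcna, the replication clamp that also stands in the replication list, by -0.47 and -0.44. Lig1, the replicative ligase, was higher in C3 females than in C3 males by 0.78 (adjusted p = 0.00298). Hells, Pcna and Lig1 were singled out after their values were seen. Of 10 readers of methylated CpG, 2 were higher and 2 lower in B6 females, beside 16.2% and 18.4% of all genes, and 1 higher and 4 lower in C3 females, beside 20.1% and 19.9%. Mbd1, a methyl-CpG binding repressor, was lower in C3 females than in C3 males by -1.16 on the log2 scale (SE 0.22, edgeR adjusted p = 0.000576), at 19.5 ± 2.34 against 44.3 ± 16.6 CPM (SD, n = 5). Between strains, 0 were higher and 1 lower in females (17.7% and 15.3% of all genes), and 4 higher and 2 lower in males (17.0% and 17.5%). The medians of the readers in the 4 comparisons were -0.0034, -0.10, -0.0016 and 0.12, in the order B6 sexes, C3 sexes, female strains and male strains. Mbd4, a glycosylase that removes thymine from mismatches at methylated CpG, was lower in C3 by -1.08 in females (SE 0.13, adjusted p = 2.34e-06) and -1.14 in males (SE 0.14, adjusted p = 2.37e-06), at mean levels of 1.05 to 2.54 CPM.

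Of the 12 NuRD subunits, the complex that Mbd2 joins, 6 were lower and none higher in B6 females, beside 18.4% and 16.2% of all genes. In C3 females 1 was higher and 4 lower, beside 20.1% and 19.9%. Rbbp4, a histone-binding subunit, was lower in females by -0.27 in B6 and -0.63 in C3 (SE 0.057 and 0.059, edgeR adjusted p = 0.00156 and 2.18e-07). Between strains 2 were higher and 2 lower in females (17.7% and 15.3% of all genes), and 3 higher and 2 lower in males (17.0% and 17.5%). The medians of the subunits, in the same order, were -0.16, 0.03, 0.08 and -0.0030. Chd3, a remodelling ATPase, was lower in C3 by -0.74 in females and -1.13 in males (adjusted p = 2.64e-07 and 8.68e-10), and Mta1, a scaffold subunit, was higher by 0.53 and 0.59 (adjusted p = 4.18e-06 and 1.45e-06). Chd3 and Mta1 thus moved in opposite directions between strains, while Mbd2 itself did not pass between strains (-0.07 in both sexes).

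Of 16 genes of base excision repair and TET partners tested, 1 was higher and 3 lower in B6 females (16.2% and 18.4% of all genes) and 1 higher and 4 lower in C3 females (20.1% and 19.9%). In C3 against B6, 4 were higher and 2 lower in females (17.7% and 15.3%), and 5 higher and 1 lower in males (17.0% and 17.5%). Neil3 did not pass the filter, and the medians were -0.04, -0.01, 0.09 and 0.19. Polb, the polymerase that fills the gap left by excision, was lower in females by -0.58 in B6 (SE 0.051, edgeR adjusted p = 9.14e-08) and -0.71 in C3 (SE 0.051, adjusted p = 7.64e-09). It therefore ran against Tet2, which was higher in females in both strains.

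The TET enzymes use 2-oxoglutarate, and of 9 genes of its metabolism 1 was higher and 6 lower in B6 females (16.2% and 18.4% of all genes) and 1 higher and 5 lower in C3 females (20.1% and 19.9%). The gene that was higher by the study's rule was Idh2, the mitochondrial enzyme that makes 2-oxoglutarate from isocitrate, by 0.59 in B6 and 0.58 in C3 (edgeR adjusted p = 0.000125 and 0.000186). Its levels were 142 ± 24.9 CPM in females and 93.9 ± 9.03 in males of B6, and 135 ± 16.6 in females and 92.2 ± 6.15 in males of C3 (SD, n = 5). Between strains 1 was higher and 1 lower in females (17.7% and 15.3% of all genes) and 0 higher and 3 lower in males (17.0% and 17.5%), and the medians were -0.28, -0.19, 0.01 and 0.03. D2hgdh, which clears 2-hydroxyglutarate, an inhibitor of such dioxygenases, was lower in C3 by -1.03 in females and -1.30 in males (adjusted p = 0.000178 and 1.54e-05).

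The methyltransferases use S-adenosylmethionine, and of 18 genes of the methyl donor cycle 2 were higher and 6 lower in B6 females (16.2% and 18.4% of all genes) and 5 higher and 5 lower in C3 females (20.1% and 19.9%). In C3 against B6, 2 were higher and 5 lower in each sex (17.7% and 15.3% of all genes in females, 17.0% and 17.5% in males), with medians of -0.11, -0.06, -0.02 and -0.15. Nnmt, which spends S-adenosylmethionine on nicotinamide, was lower in C3 by -4.49 in females (64.2 ± 27.9 against 2.77 ± 1.23 CPM, SD, n = 5) and -5.42 in males (64.3 ± 29.4 against 1.27 ± 0.44 CPM), with edgeR adjusted p of 8.46e-11 and 2.09e-11. Ahcy, which removes S-adenosylhomocysteine, the product that inhibits methyltransferases, was lower in C3 by -0.69 and -0.75 (adjusted p = 5.92e-05 and 2.75e-05). Mtrr, which reactivates methionine synthase, was higher in C3 by 0.37 in females and 0.74 in males (adjusted p = 0.0242 and 0.000114). Between sexes, Bhmt, which remethylates homocysteine from betaine, was lower in females by -1.14 in B6 and -0.61 in C3 (edgeR adjusted p = 2.4e-06 and 0.0013). Ahcyl2, related to Ahcy in sequence, was lower in females by -0.79 in B6 and -0.94 in C3 (adjusted p = 0.000179 and 4.03e-05).

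The genes whose log2 CPM followed each member most closely over the 20 livers, with pool means removed, were taken from those with a mean of at least 1 CPM, as a description. For Uhrf1 the closest was Top2a, the topoisomerase of dividing cells (Pearson r = 0.92), and then Adamts2 (0.88). Dnmt1 was followed by Hdac6 (0.92) and Birc3 (0.90), and Tet3 by Rcor3 (0.90) and 6330408A02Rik (0.88). Dnmt3a was followed by Pzp (0.93) and Cecr2 (0.92), and Dnmt3b by Hlcs (0.91) and Car5b (0.90). Tet2 was followed by Iigp1 (0.94) and Sh3yl1 (0.94), Tet1 by Pdcd2l (0.87) and Nxn (0.86), and Mbd2 by Mrpl42 and Necab1 (0.88 each). These values include the differences between the 4 groups, and livers share library depth and pool. With group means also removed, Top2a kept an r of 0.89 with Uhrf1 and Rcor3 one of 0.89 with Tet3, while Pzp fell to 0.76 with Dnmt3a.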

How the data were processed

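Per the labels and methods, RNA depleted of ribosomal RNA was sequenced as stranded pairs. The authors trimmed reads with cutadapt 1.9.1, aligned them to mm9 with STAR 2.5.1b and counted them per RefSeq gene and strand with featureCounts (Subread 1.5.0-p1), leaving out reads with several matches or several genes. They deposited raw counts per gene, used for all tests, and TPM, counts scaled to gene length and library total, used for levels between genes. In the deposited tables the columns headed as gene ID and gene symbol are interchanged, and symbols were taken from the column that holds them.

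Counts were fitted with edgeR 4.0.16 (R 4.3.3) over all 20 livers, 5 per group, by group and pool after TMM scaling and a filter on low counts by group, with Benjamini-Hochberg adjustment over the 13704 genes tested. Alternatives were DESeq2 1.42.0, limma 3.58.1 on log2(TPM + 1) and log2(TPM + 0.1), 2 other scalings, no filter, no pool term, a replicate block, only the compared groups, and leaving out each pool or liver. The counting depth was 27370921 to 46835745 per library. A count of 3 was taken as the smallest countable level, a floor that covers counting error only. Log2 CPM used a prior count of 2. Copies were sought with minimap2 2.31 in windows of 125 bases every 25 bases, outside a margin of 2000 bases around the gene. The scripts were tested on simulated data. The members and gene lists were chosen with earlier results of these data known. The text names all members, and of each other list the up to 2 genes per direction with the largest fold among those past the study's rule. Hells, Pcna, Lig1, Cdt1 and Rrm1 were named outside this rule. Some genes named by it are also given in comparisons where they did not pass it. The 2 genes closest to each member in level are named too. Mbd2 was not matched in the promoter table.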

Additional observations from a re-analysis of the deposited data

Results flagged for a closer look

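Among 32 sets of 5 livers, 1 for each of the 8 members in each group, 2 held a liver whose gap to its nearest neighbour was wide for the range of the group (Dixon's criterion at 95%), where chance gives about 1 in 20. Both were in Uhrf1. In B6 females replicate 4 had 2.954 CPM and the next liver 1.634 CPM, a gap of 0.717 of the range. In B6 males replicate 3 had 1.567 CPM and the next 1.04 CPM, a gap of 0.776 of the range. Each is the highest liver of a B6 group, on the side away from C3, and the strain difference in females passed without either liver.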

How the results depend on the processing

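No result that passed in any fit changed direction, while 57 values that did not pass changed sign. Of 471 single-gene values under other settings, 412 kept their side of the threshold, 52 fell short of it and 7 passed it. With 1 liver left out the numbers were 741, 55 and 4 of 800. In each alternative the 3 members called between strains in females remained past the adjusted p, except Dnmt3a without pool 1. Between sexes in B6, the 4 members past the adjusted p became 2 without a filter, 0 without the pool term, 2 with only the compared groups, and 1, 2 and 1 without pools 1, 2 and 3, and 1 to 4 with 1 liver left out. In C3 the 6 members became 0 without the pool term, 0, 3 and 1 without pools 1, 2 and 3, and 1 to 6 with 1 liver left out, by more than 1.5 times without C3 female 1 or 4 or C3 male 1 or 3. Between strains in males the count of 1 was 1 to 3 with 1 liver left out, higher without B6 male 2 or C3 male 3.

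The single members past the study's rule became 0 without the pool term, with only the compared groups and with any 1 pool left out, in B6 between sexes and in either sex between strains. Between strains they were also 0 with limma on either TPM scale and with upper-quartile scaling. With 1 liver left out these counts were 0 to 1, and 0 in 16 of 20 fits for Tet2, 14 for Dnmt3b and 14 for Dnmt3a, with adjusted p close to the threshold of 0.001 over all livers. Single livers that ended a call at 0.05 were, for Mbd2 in B6, females 2 and 5 and males 2 and 3, and in C3, females 1, 4 and 5 and males 1, 2 and 3. For Tet3 they were C3 females 1 and 3 and males 1, 3 and 4, and for Dnmt3b C3 females 1 and 4 and males 1 and 3. For Dnmt3a in B6 they were females 2 to 5, all B6 males and C3 males 3 and 4. Tet1 lost its call in B6 without any 1 liver but B6 females 2 and 3, B6 male 4, C3 female 5 and C3 male 2, and in C3 without females 1 to 4 or males 2 to 5.

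On the TPM scale with limma the median of all genes moved towards females by 0.109 in B6 and 0.102 in C3 (0.115 and 0.108 with the smaller pseudocount), and differences between sexes there are relative to that shift. Mbd2 then differed by -0.04 in both strains, Tet1 lost its call in both, and Dnmt1 and Tet3 passed in B6. Replicate numbers did not pair livers: same-numbered livers had mean correlations of -0.19, -0.24, 0.22 and 0.18 over the 4 comparisons, and below 0.1 in at least 1 pair of each. With the replicate block the count in males between strains was 2 at the adjusted p, with Tet2 added (adjusted p = 0.0230), and 0 by the study's rule, and no other count moved by more than 1.5 times. Low counts limit Tet1, Uhrf1 and Tdg.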

Other observations

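The ratio of Tet2 to Mbd2, chosen after their values were seen, is free of library scaling because both come from the same liver. Each gene alone overlapped between sexes, and each varied with pool. As TPM, the ratio was 0.180 to 0.249 in B6 females against 0.0933 to 0.148 in B6 males, and 0.217 to 0.296 in C3 females against 0.125 to 0.178 in C3 males, without overlap in either strain. Tet2 passed as higher and Mbd2 as lower in females of both strains, so the choice of this pair favours a separation of the sexes. The share of other gene pairs without overlap was not computed, and the ratio is a description with no test. The summed TET TPM per summed DNMT TPM overlapped between all groups, at 0.716 ± 0.112 in females and 0.580 ± 0.120 in males of B6, and 0.624 ± 0.106 in females and 0.577 ± 0.097 in males of C3 (SD, n = 5).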
